A study of Homo sapiens with 28 samples.

Results

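U266 is a human multiple myeloma cell line, and its gene expression was compared with that of 3 other myeloma lines, MM.1s, KMS11 and 8226/S. The members are the 7 arrays of 28 that the labels assign to U266, and each was set against the 3 arrays of the other lines that carry the same treatment label. Every line has the same 7 arrays: an untreated control 1, darinaparsin (DAR, an organic arsenic compound) for 6 and 24 h, an untreated control 2, and arsenic trioxide (ATO, an inorganic arsenic compound) for 6, 24 and 48 h. ATO was used at 2 µM in all lines, whereas DAR was used at 4 µM in U266, at 3 µM in MM.1s and KMS11 and at 2 µM in 8226/S. Controls are listed here at 0 h, though their titles give no time of harvest. Each line is a single line with 1 array per treatment, so the arrays of U266 describe U266 and no wider class of myeloma.

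Myeloma arises from plasma cells, which end the B lineage and secrete antibody. Its lines are commonly told apart by rearrangements that place a gene beside an immunoglobulin enhancer, among them those of CCND1 (a D-type cyclin that drives entry into the cell cycle), MAF (a transcription factor) and FGFR3 with NSD2 (a receptor kinase and a histone methyltransferase). U266 is known as a producer of IgE, as a line that makes its own interleukin-6, the main growth factor of myeloma cells, and as a carrier of an immunoglobulin enhancer inserted near CCND1.

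Signals are the deposited array intensities, which share a trimmed mean of 500.1 on every array. Array medians ran from 65.5 to 147.3, with the controls numbered 1 and the DAR arrays (65.5 to 108.7) below the controls numbered 2 and the ATO arrays (110.9 to 147.3), a split that the labels do not explain and that the matching by label balances between lines. Over all probe sets except the array controls, 2 U266 arrays correlated at 0.904 to 0.966, and a U266 array with an array of another line at 0.807 to 0.897. The label was checked against marker genes: CCND1 was high in U266 alone, and 8 of 10 plasma cell markers were above the array median on all 7 U266 arrays, the exceptions being CD38 and MZB1. The summed signal of the plasma cell markers was 35234 to 110260 on U266 arrays, against 48263 to 153644 on the others. Of the markers of other cell types, the B cell sum was 192 to 729 on U266 arrays against 216 to 1860 on the others, T and NK cells 223 to 918 against 100 to 781, myeloid cells 128 to 364 against 65.9 to 282, and stroma 119 to 982 against 53.4 to 1235. The erythroid marker HBB was at 334 to 952 against 53.6 to 2300, and the epithelial sum of EPCAM and KRT19 at 18.5 to 82.2 against 12 to 11609. HBB, CD2 and CD22 were above the array median on all 7 U266 arrays, and what part other cells have in the results was not tested. In RNA from bulk cultures, fewer cells expressing a gene and less RNA per cell cannot be told apart.

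U266 differed from the mean of the other lines in a large share of its genes, and stood outside all 3 of them in a smaller one. Values were compared as log2 of the signal plus 29, so that a difference of 1 is a doubling for bright genes and understates the change of dim ones. In limma, with cell line and treatment label in the fit, 4064 of 14856 autosomal genes tested were higher in U266 than the mean of the other lines (27.4%) and 3989 were lower (26.9%) at an adjusted p under 0.05, together 54.2%. Called apart in what follows are the genes in which U266 differed by at least 1 log2 unit, in the same direction, from each of the other lines, each with an adjusted p under 0.05. There were 656 such genes higher in U266 (4.42%) and 498 lower (3.35%), together 7.77%. Counts given below for gene lists are to be read beside these shares over all genes, and several lists lie near them. The same rule gave 446 genes for MM.1s, 360 for KMS11 and 963 for 8226/S. All 7 U266 arrays lay above all 21 others for 550 genes (3.7%) and below them for 395 (2.66%), together 6.36%. The median difference over all genes was -0.001.

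These p-values rest on how far the difference between lines varied over the 7 labels, and they speak of these 4 lines. With the line as the replicate, 1 against 3, limma called none of the 14856 genes after adjustment, with 1463 at an unadjusted p under 0.05 (9.85%), of which 836 were higher (5.63%) and 627 lower (4.22%). With the line as a random block it called 1358 (703 higher, 655 lower).

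**Figure D1:**
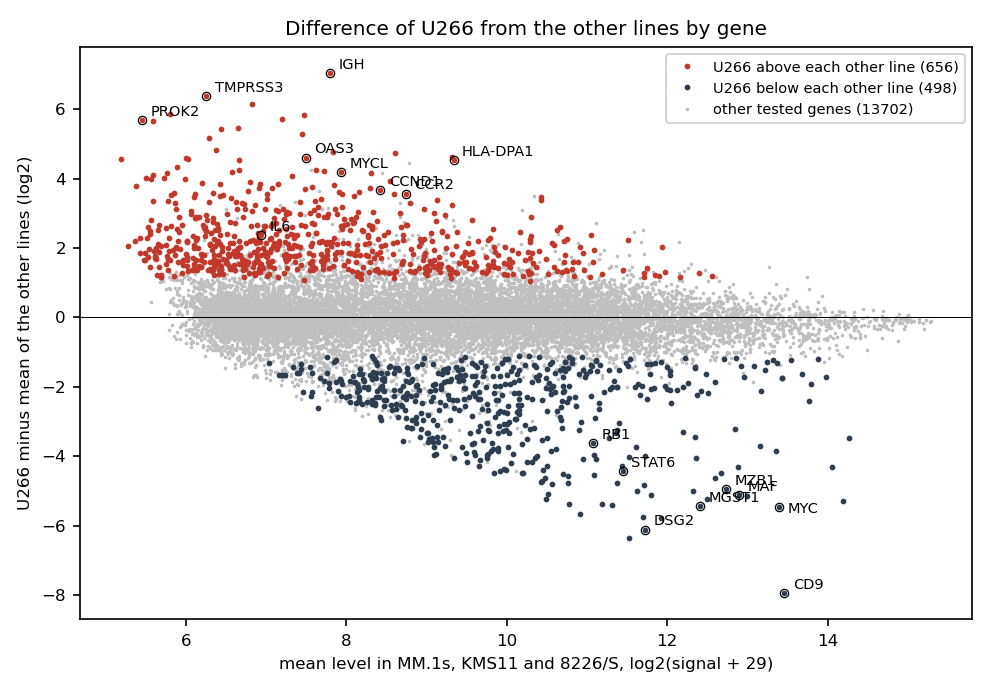
Each point is 1 of 14856 autosomal genes, with its mean level in MM.1s, KMS11 and 8226/S on the horizontal axis, as log2 of the signal plus 29, and the difference of U266 from that mean on the vertical axis. The 656 genes with U266 above each other line reach a difference of 7.04 at IGH, and the 498 with U266 below each other line reach -7.94 at CD9.

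CCND1, the D-type cyclin by which the line is marked, had signals of 2294, 4685 and 10331 (lowest, median and highest array) in U266, against 138, 334 and 662 over the 21 other arrays. The groups did not overlap, the difference was 3.67 ± 0.18 (log2, SE; limma adjusted p = 3.48e-15), and both CCND1 probe sets were higher. Within U266 the signal was 10331 and 6890 in the untreated cells, 4685 and 4697 after 6 and 24 h of DAR, and 3298, 2450 and 2294 after 6, 24 and 48 h of ATO. Every treated U266 array therefore still lay above every array of the other lines. CCND2, the D-type cyclin that U266 shared with the others at a high level, was slightly lower in U266 at 7046, 8587 and 12125, against 7340, 12523 and 20000 (difference -0.53 ± 0.10, adjusted p = 7.40e-05). CCND3 was lower, at 336, 450 and 677 in U266 against 843, 1334 and 1944 in the others, without overlap (-1.43 ± 0.10, adjusted p = 2.70e-12), though the mean of its probe sets gave -0.53.

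None of the 12 tested genes nearest to CCND1 in gene order, 6 on each side, was higher in U266. LTO1, next to CCND1 on one side, was lower in U266 with 8.57, 17.0 and 71.2 against 6.22, 137 and 503 (-1.61 ± 0.21, adjusted p = 3.98e-07). That value depended on how dim signals are damped, since an offset of 8 in place of 29 gave -0.12 (adjusted p = 0.806). MYEOV, on the other side, differed by -0.54 ± 0.21 (adjusted p = 0.0360), a call lost in 10 of 22 alternative settings. The genes whose levels followed CCND1 most closely over the 28 arrays were TMED8 (Pearson r 0.950), NKIRAS1 (0.940), TPRG1 (0.929) and PROK2 (0.926), followed by FSD1, TDRD5, CA13 and IGSF11 (0.915 to 0.918). These correlations are a description, because most of the spread over the arrays is the step between U266 and the other lines, which all of these genes share.

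Of the 12 tested targets of myeloma translocations and D cyclins, 2 were higher, 9 lower and 1 not called, with 2 apart and higher and 5 apart and lower. The MYC family showed opposite extremes. MYC, the transcription factor most often activated in myeloma, had signals of 88.3, 299 and 679 in U266, against 1218, 12777 and 25015 in the others, with no overlap (-5.46 ± 0.22, adjusted p = 4.20e-17). MYCL, its relative, had 2611, 4258 and 8159 in U266, against 54.1, 201 and 545, again without overlap (4.18 ± 0.22, adjusted p = 1.27e-14). Both held against each line on its own, at -5.85, -4.44 and -6.08 for MYC and at 4.23, 4.64 and 3.66 for MYCL against MM.1s, KMS11 and 8226/S.

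MAF and the genes usually high with it were lower in U266 than the mean of the other lines. MAF signal was 64.5, 72.6 and 766 in U266, against 1292, 9145 and 20068 in the other lines, which are known for MAF rearrangements (-5.11 ± 0.24, adjusted p = 9.71e-16). The 3 U266 arrays of control 1 and DAR (454 to 766) lay above its 4 arrays of control 2 and ATO (64.5 to 72.6), and all were below every other array. All 6 tested members of a list of genes tied to MAF were lower in U266 than that mean, with a median difference of -2.39, and 3 of them were apart. By line, the median was -2.59 against MM.1s and -2.45 against 8226/S, but -0.76 against KMS11. ITGB7, an integrin subunit used in adhesion to stroma, had 598, 2328 and 2961 in U266 against 11922, 19113 and 36203 (-3.46 ± 0.18, adjusted p = 5.00e-15). The kinase gene NUAK1 had 27.0, 74.6 and 128 against 181, 602 and 3599 (-3.13 ± 0.20). DEPTOR, an inhibitor of mTOR, was lower at 1365, 1810 and 2559 against 1999, 5360 and 15704, with overlap between the groups (-1.64 ± 0.15, adjusted p = 7.75e-10). CX3CR1 was at -3.25 against the mean, but its median signal was 32.3 in U266, against 9.39 in KMS11 and 11509 in 8226/S, so the other lines did not form 1 level.

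FGFR3 and NSD2 show why the mean of the other lines was not used alone. FGFR3 was at 37.9, 89.3 and 126 in U266, close to the medians of 84.7 in MM.1s and 106 in 8226/S, whereas KMS11 had a median of 1968. Without KMS11 the differences were -0.10 for FGFR3 and -0.33 for NSD2, and neither passed the test.

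**Figure D2:**
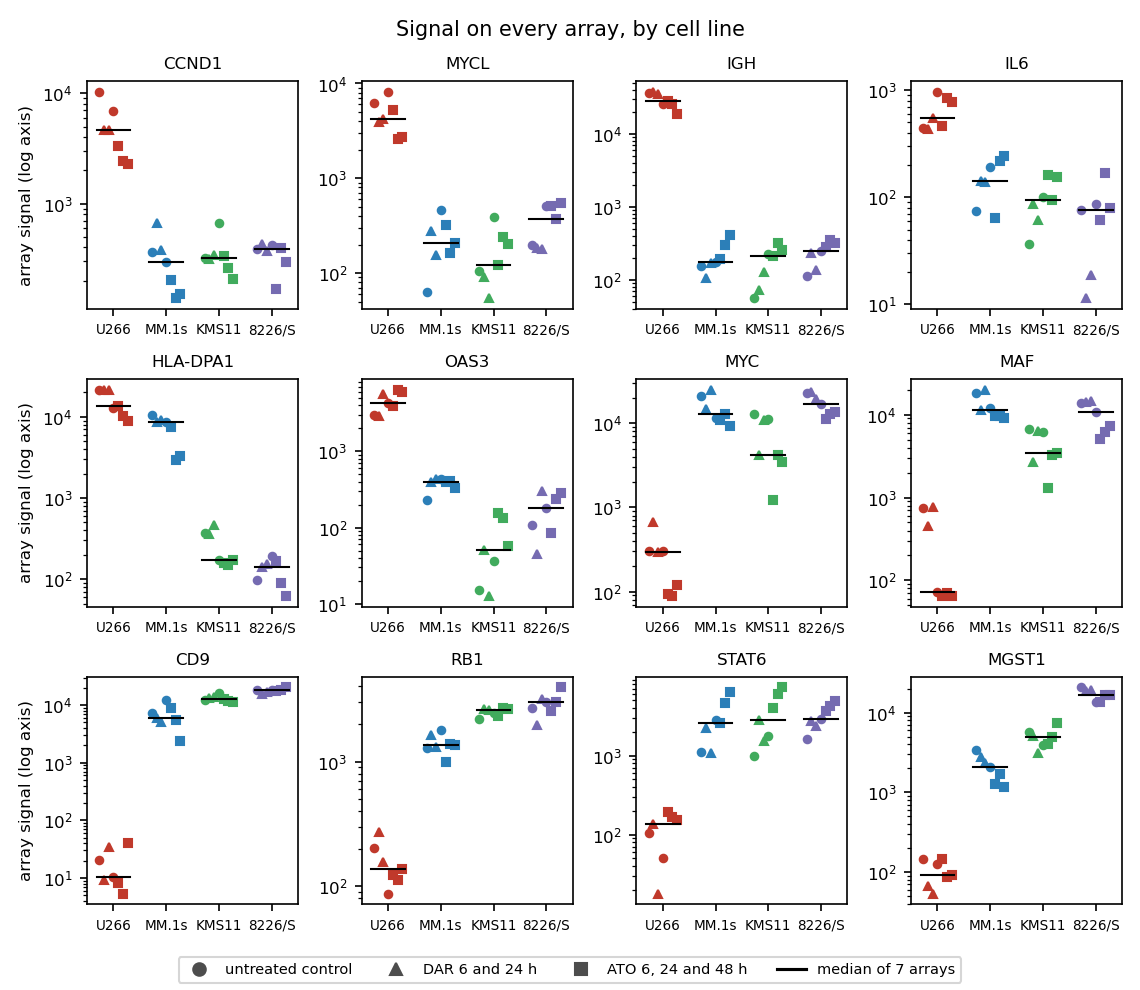
Signal of 12 genes on every array, on log axes, with U266 at the left and MM.1s, KMS11 and 8226/S to its right. Points are single arrays, with circles for controls, triangles for DAR and squares for ATO, and bars are medians of 7 arrays. The U266 arrays lie apart from all 21 others in each panel except HLA-DPA1, where MM.1s has a median of 8687 against 13583 in U266.

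The genes most raised in U266 over the nearest line were of varied function. IGH, the immunoglobulin heavy chain locus, came first, with 18752, 28186 and 38062 in U266 against 55.3, 215 and 416 in the others (7.04 ± 0.21, adjusted p = 9.97e-20). Of 4 probe sets assigned to IGH, 3 were higher in U266 and the fourth was not called. TMPRSS3, a membrane serine protease known for its part in hearing, followed with 3421, 5183 and 11722 against 4.6, 58.6 and 133 (6.38 ± 0.30, adjusted p = 1.09e-15). PROK2, a secreted prokineticin, had 1578, 1970 and 4287 in U266, against 1.74, 6.98 and 71.1 (5.70 ± 0.23). No array of another line exceeded 133 for either gene.

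LIN28B, an RNA-binding protein that blocks maturation of let-7 microRNAs and is normally an embryonic gene, had a narrow range of 1902, 2238 and 2553 in U266 against 5.53, 74.5 and 123 (4.81 ± 0.18, adjusted p = 1.26e-17). NDN, an imprinted growth-restraining gene, stood at 1954, 2342 and 4416 against 4.67, 50.4 and 163 (5.18 ± 0.30). ADAMDEC1, a protease of the ADAM family, had 1220, 4771 and 8388 against 4.41, 69.2 and 114 (5.43 ± 0.27). The pancreatic lipase gene CEL (5.86 ± 0.24), the neuronal adhesion gene LSAMP (4.59 ± 0.24), FSTL5 (4.56 ± 0.28), FBXL13 (4.58 ± 0.23) and NFE4 (5.66 ± 0.24) were likewise dim elsewhere, with no array of another line above 106. SCRN1 differed more by line, with 7799, 10367 and 11914 in U266 and medians of 55.1 in MM.1s, 605 in KMS11 and 74.8 in 8226/S. None of these 12 genes overlapped between U266 and the others, which largely follows from choosing them by their distance to the nearest line. Of the 656 genes apart and higher, 150 passed the filter on dim genes only through their U266 arrays. PROK2 and ADAMDEC1 are among them, and other genes named here may be. For such genes the filter used the arrays in which they are high, so their differences are a description and their p-values no added support.

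At the other end, CD9 had the largest deficit among the genes U266 was apart in. CD9, a tetraspanin of the cell surface, had 5.27, 10.2 and 41 in U266, against 2411, 12692 and 20253 in the others (-7.94 ± 0.18, adjusted p = 4.48e-22). Its second probe set was not called, and the mean of both gave -2.73. DSG2, a desmosomal cadherin, had 3.19, 20.3 and 66.3 against 1361, 3194 and 8459 (-6.11 ± 0.16, both probe sets lower). SVIP, an inhibitor of degradation of proteins from the endoplasmic reticulum, had 1.53, 5.29 and 26.7 against 1786, 2470 and 7246 (-6.34 ± 0.15, 4 of 4 probe sets lower).

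Several of the other genes at this end act in signalling or metabolism. CERS6, a ceramide synthase, had 14.7, 25.9 and 96.3 in U266 against 2167, 2977 and 7498 (-5.74 ± 0.18). GNB4, a G protein beta subunit, had 2.83, 5.41 and 22.9 against 809, 1453 and 4903 (-5.68 ± 0.11), and DNAJC15, a mitochondrial co-chaperone, had 9.39, 13.1 and 137 against 2477, 3821 and 6751 (-5.79 ± 0.16). S100A11, a calcium-binding protein, was still present in U266 at 141, 496 and 936 against 12007, 17420 and 28880 (-5.29 ± 0.17). MFNG, a glycosyltransferase that modifies Notch receptors (-5.00 ± 0.16), the carbonyl reductase CBR3 (-5.38 ± 0.21), SEPTIN9 (-5.14 ± 0.18), BASP1 (-5.00 ± 0.14) and DDAH1, which breaks down an inhibitor of nitric oxide synthase (-4.70 ± 0.16), completed the 12 lowest. All 12 were without overlap, again largely by the way they were chosen. The mean over a gene's probe sets was smaller in size for several of the 12, down to -1.44 for DDAH1, and passed the test for each.

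Genes that control the G1 phase were mostly level or lower in U266. Of 19 tested, 10 were lower, 2 were higher and 7 were not called, with a median difference of -0.37, and 3 were apart, all lower. Over all genes, 26.9% were lower, 27.4% higher and 3.35% apart and lower. RB1, the retinoblastoma protein that D-type cyclins inactivate, had 86.9, 138 and 273 in U266 against 983, 2459 and 3926, without overlap and in both probe sets (-3.61 ± 0.13, adjusted p = 9.23e-18). The gene next to it among those tested, RCBTB2, singled out after its values were seen, had 9.26, 58.3 and 81.3 against 257, 581 and 2525 (-3.34 ± 0.20, adjusted p = 1.00e-13). Nearby, ITM2B (-0.74, and -1.50 in its other probe set), ESD (-0.53), SUCLA2 (-0.42) and CDADC1 (-0.69) were lower by less, CYSLTR2 (0.52) and FNDC3A (1.15) were higher, and 5 more were not called. CDK6, a kinase partner of the D-type cyclins, had 443, 702 and 1432 against 2189, 4149 and 8157, with 7 of 7 probe sets lower (-2.47 ± 0.15, adjusted p = 1.82e-13). CDKN1C, an inhibitor of those kinases, had 119, 311 and 478 against 303, 820 and 2191 with some overlap (-1.68 ± 0.24), at -2.53 over control 1 and DAR and -1.04 over control 2 and ATO. The inhibitors CDKN2A and CDKN2B followed no common level in the other lines, with CDKN2A at a median of 2477 in U266 and of 230, 9342 and 6894 in MM.1s, KMS11 and 8226/S.

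Interleukin-6 was the one member apart and higher in the list of its own pathway. IL6 had 431, 545 and 967 in U266 against 11.4, 86.6 and 244 in the others, without overlap (2.38 ± 0.20, adjusted p = 1.59e-10), and its difference lay between 2.07 and 2.75 at all 7 labels. IL6R, its receptor chain, had 6355, 8440 and 13772 in U266, a level that MM.1s matched with a median of 8577, while KMS11 and 8226/S had 828 and 1784. STAT3, which carries the signal to the nucleus, had a median of 4994 in U266, against 2532, 4952 and 2055 in MM.1s, KMS11 and 8226/S. Of the 28 tested members of the IL-6 and JAK-STAT list, 9 were higher, 11 lower and 8 not called, with a median of -0.13. The shares over all genes were 27.4% higher and 26.9% lower.

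The members apart and lower were STAT6, PTPN6 and IL10RA. STAT6, the transcription factor of interleukin-4 signalling, had 17.7, 137 and 194 in U266 against 984, 2801 and 7276, with no overlap (-4.42 ± 0.18, adjusted p = 4.20e-17), and the difference was nearly equal against the 3 lines at -4.27, -4.44 and -4.55. PTPN6, the phosphatase SHP-1 that damps cytokine receptors, had 231, 296 and 595 against 670, 1082 and 5497 (-2.0 ± 0.16, adjusted p = 2.86e-11). IL10RA, a receptor chain for interleukin-10, had 203, 303 and 769 against 510, 1334 and 4933 (-2.03 ± 0.12). SOCS3, a feedback inhibitor induced by this pathway, differed by 0.50 ± 0.16 in its brightest probe set and by 1.47 and 2.4 in the others, with a mean of 1.00 (adjusted p = 9.58e-05). The call on the brightest was lost without control 2 (0.33), with control 1 and DAR alone (0.30) and without the pairing by label (adjusted p = 0.0715).

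Among 26 cytokines and growth factors tested, 7 were higher, 11 lower and 8 not called, and IL6, FGF2 and the B cell survival factor TNFSF13B were apart and higher. The shares over all genes were 27.4% higher, 26.9% lower and 4.42% apart and higher. FGF2, a fibroblast and vessel growth factor, had 691, 834 and 1144 in U266 against 16.9, 114 and 370 (2.53 ± 0.16, adjusted p = 3.94e-13). The chemokine CCL4 differed by 3.12 from the mean but by only 0.31 from MM.1s, while CXCL10, a chemokine induced by interferon, was lower at 7.93, 140 and 242 against 110, 825 and 9329 (-2.99 ± 0.50). This difference was -5.09 over control 1 and DAR and -1.41 over control 2 and ATO.

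Of 13 transcription factors of plasma cells tested, 3 were higher, 4 lower and 6 not called, and none was apart, shares near those of all genes (27.4% higher, 26.9% lower, 7.77% apart). PRDM1, the regulator that ends the B cell programme, had 2858, 3486 and 6334 in U266 against 1474, 3024 and 9829 (0.13 ± 0.08, adjusted p = 0.205). XBP1, which expands the secretory apparatus, had 5086, 9436 and 15101 against 5730, 8978 and 21541 (-0.23 ± 0.12, adjusted p = 0.0990), and IRF4, on which myeloma cells depend, had 2787, 3815 and 9164 against 1839, 5061 and 13176 (-0.24 ± 0.12, adjusted p = 0.0930). Without 8226/S all 3 were called lower, at -0.34, -0.50 and -0.47, and without MM.1s PRDM1 was called higher at 0.61.

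Genes of the secretory cell itself were more divided. MZB1, a chaperone of immunoglobulin assembly, had 13.7, 346 and 536 in U266 against 496, 10465 and 16499, with a small overlap (-4.95 ± 0.26, adjusted p = 9.78e-15). FCRL5, an immunoglobulin receptor-like surface protein, had 879, 1195 and 1281 against 20.7, 136 and 383, with none (3.06 ± 0.27, adjusted p = 2.54e-10). Among 24 chaperone and secretion genes of the endoplasmic reticulum, 12 were lower, 4 were higher and 8 were not called, and PDIA3 and CRELD2 were apart, both lower. PDIA3, a disulphide isomerase, had 2493, 2782 and 4012 in U266 against 4785, 7360 and 12103 (-1.39 ± 0.08), and CRELD2 had 684, 1115 and 1821 against 2273, 3346 and 5897 (-1.63 ± 0.15). IGKC, the kappa light chain constant region, had 9929, 13218 and 21150 in U266, with medians of 41.8 in MM.1s, 23054 in KMS11 and 908 in 8226/S. Its other probe sets disagreed, with differences from -1.23 to 1.00. A probe set for IGLC1, of the lambda light chain, was also bright in U266. Its median was 26815, against 38136 in MM.1s, 1339 in KMS11 and 35067 in 8226/S. Other probe sets annotated to IGLC1 alone ran down to a median of 35.5 in U266. Of 12 immunoglobulin and assembly genes tested, 4 were higher, 2 lower and 6 not called. Beside these and the chaperone and secretion genes stand 27.4% higher and 26.9% lower over all genes. Immunoglobulin probe sets share sequence between segments and classes, so the gene behind each of these signals is uncertain.

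Genes that plasma cells normally switch off when they leave the B cell stage differed in both directions. Of 20 tested, 4 were higher, 8 lower and 8 not called, and both members apart were lower. Over all genes, 27.4% were higher, 26.9% lower and 3.35% apart and lower. CR2, a complement receptor of B cells, had 4.02, 17.5 and 54.6 in U266 against 407, 1001 and 3612 (-4.36 ± 0.16, adjusted p = 1.08e-17), and IRF8 had 39.6, 106 and 159 against 609, 977 and 1643 (-3.07 ± 0.17, adjusted p = 3.38e-14). BLNK, an adaptor of the B cell receptor, was near the level of U266 in KMS11, with medians of 136 in U266 and 67 in KMS11 against 1984 in MM.1s and 2231 in 8226/S.

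Genes for MHC class II, which presents antigen to helper T cells, were mostly higher in U266 than the mean of the other lines. Of 13 tested, 10 were higher, 1 was lower and 2 were not called, with a median difference of 1.53, and 4 were apart and higher. By line, the median was 0.52 against MM.1s, 1.61 against KMS11 and 2.51 against 8226/S. HLA-DQB1 had 2218, 2473 and 3565 in U266 against 109, 277 and 687 (3.03 ± 0.14, adjusted p = 9.96e-16), with 6 of 6 probe sets higher. HLA-DQA1 had 1225, 2371 and 3261 against 16.9, 63.8 and 1144 (3.85 ± 0.34), and HLA-DRB1 had 10546, 12621 and 19195 against 160, 1387 and 7962 (3.38 ± 0.19, and 2.25 without 8226/S). The level in the others was graded rather than uniform. HLA-DPA1 had medians of 13583 in U266, 8687 in MM.1s, 172 in KMS11 and 143 in 8226/S, and its U266 arrays (9008 to 21636) overlapped those of MM.1s.

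The probe sets of CIITA, the transactivator on which class II expression depends, disagreed. The brighter had 59.9, 177 and 384 in U266 against 19.4, 202 and 498 and was not called (-0.13 ± 0.27, adjusted p = 0.726), and the other was higher in U266 (0.78 ± 0.25, adjusted p = 0.0107). CD74, the invariant chain, was at 0.64 ± 0.11, and at 0.15 without 8226/S. CTSS, a protease that trims the invariant chain, was the lower member, with 142, 212 and 253 in U266 against 242, 2026 and 4813 (-2.69 ± 0.18, adjusted p = 8.22e-13). Class II genes are variable between people and similar to each other, and how far each line's alleles match the probes was not tested.

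Interferon-stimulated genes, the antiviral set that cells switch on when interferon signals reach the nucleus, formed a second group high in U266. Of 29 tested, 17 were higher, 5 lower and 7 not called, with a median of 0.99, and 10 were apart and higher: OAS3, USP18, IFI27, MX2, IFIT3, OAS1, MX1, OAS2, IFI6 and IRF9. OAS3, a sensor enzyme of double-stranded RNA, had 2908, 4282 and 6385 in U266 against 12.6, 179 and 431, with no overlap (4.61 ± 0.23, adjusted p = 2.33e-15). USP18, which removes ISG15 from proteins and restrains the interferon receptor, had 377, 525 and 1919 against 3.83, 9.97 and 172 (3.59 ± 0.29, adjusted p = 4.94e-11). IFI27 had 306, 1210 and 3467 against 9.33, 84.6 and 376, with slight overlap (3.27 ± 0.30, adjusted p = 4.27e-10). The other 7 differed by 1.73 to 3.19.

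The list did not move as 1 block. IFI6 was raised more modestly, at 892, 1311 and 2185 in U266 against 187, 324 and 928 (1.84 ± 0.18, adjusted p = 2.80e-09). GBP1, a GTPase induced chiefly by interferon gamma, was the member apart and lower, with 2.12, 17.0 and 83.8 in U266 against 8.37, 298 and 12880 (-3.33 ± 0.36, adjusted p = 9.66e-09), and most of its height elsewhere was in MM.1s, with a median of 2721 (-2.07 without that line). Differences for OAS3 lay between 4.24 and 4.93 at all labels, whereas those for USP18 ranged from 2.37 to 5.57.

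Promoters of these genes are shown because 10 members were apart and higher and the family has a known control motif, the interferon-stimulated response element. The motif was searched on both strands as 2 copies of GAAA with any 2 bases between them, in the window from 250 bases before to 50 after each RefSeq gene start (GRCh38.p14), and it is present in 1255 of 35116 such promoters (3.57%). Of 22 tested members of the list that matched a promoter, 17 hold it (77.3%): 5 of the 7 that were apart and higher (71.4%), and 12 of the other 15 (80%), GBP1 among them. OAS1 and IRF9 have no match in this window. Capitals mark the motif on either strand, and the first 3 sequences belong to genes higher in U266 and the last to GBP1, which was lower. OAS3 is at chr12:112938224-112938523 on the plus strand, IFI27 at chr14:94110486-94110785 on the plus strand, IFI6 at chr1:27672143-27672442 on the minus strand and GBP1 at chr1:89065159-89065458 on the minus strand.
OAS3: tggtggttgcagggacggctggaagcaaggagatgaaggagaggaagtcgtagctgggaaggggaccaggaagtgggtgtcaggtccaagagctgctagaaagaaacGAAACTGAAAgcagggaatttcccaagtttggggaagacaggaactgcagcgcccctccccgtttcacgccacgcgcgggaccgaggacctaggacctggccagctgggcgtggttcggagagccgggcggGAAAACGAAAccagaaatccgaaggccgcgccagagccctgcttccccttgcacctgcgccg
IFI27: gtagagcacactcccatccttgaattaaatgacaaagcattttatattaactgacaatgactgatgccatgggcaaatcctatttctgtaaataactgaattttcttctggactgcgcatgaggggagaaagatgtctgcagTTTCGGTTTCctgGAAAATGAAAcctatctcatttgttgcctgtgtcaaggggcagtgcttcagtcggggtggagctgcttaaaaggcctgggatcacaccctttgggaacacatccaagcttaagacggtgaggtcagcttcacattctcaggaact
IFI6: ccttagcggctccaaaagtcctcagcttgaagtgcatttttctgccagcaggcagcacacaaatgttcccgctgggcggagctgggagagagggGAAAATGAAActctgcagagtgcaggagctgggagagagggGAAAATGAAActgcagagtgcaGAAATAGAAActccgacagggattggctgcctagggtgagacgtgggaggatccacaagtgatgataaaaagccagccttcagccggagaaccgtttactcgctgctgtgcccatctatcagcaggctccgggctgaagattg
GBP1: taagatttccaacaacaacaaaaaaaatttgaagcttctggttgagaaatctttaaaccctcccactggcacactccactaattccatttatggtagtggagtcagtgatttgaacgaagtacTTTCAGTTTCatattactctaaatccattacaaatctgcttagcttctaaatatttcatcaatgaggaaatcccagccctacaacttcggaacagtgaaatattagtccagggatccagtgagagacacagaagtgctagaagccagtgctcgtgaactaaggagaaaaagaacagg

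**Figure D3:**
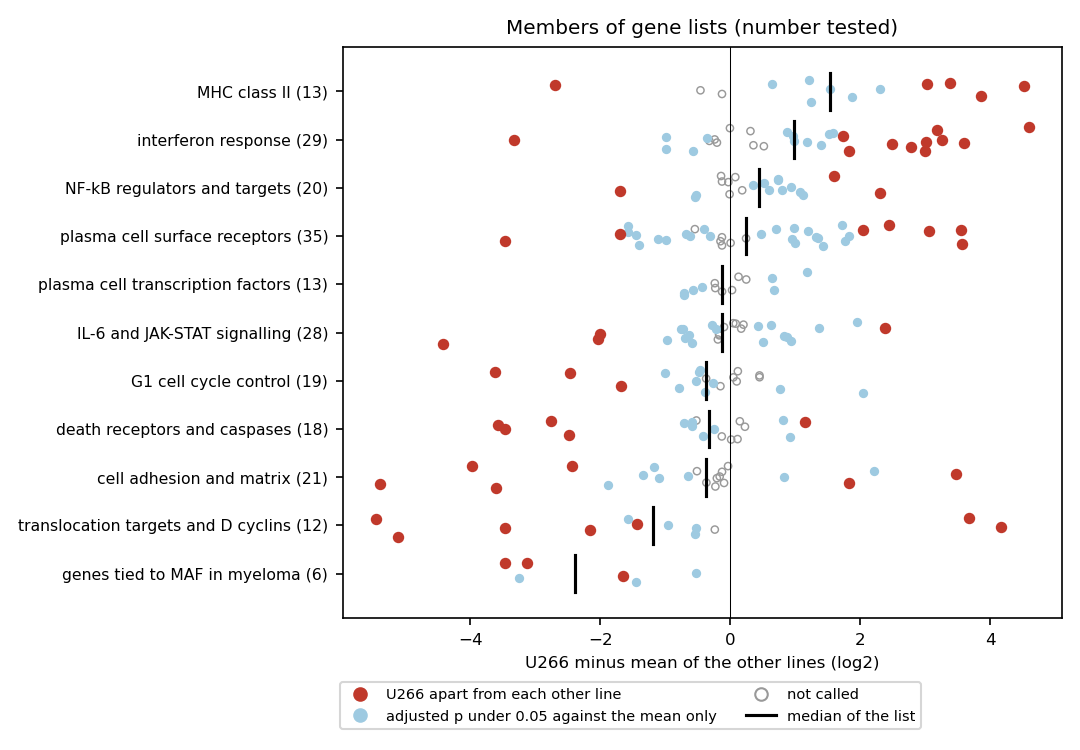
Difference of U266 from the mean of the other lines, in log2 units, for the tested members of 11 gene lists (number tested in brackets), with a black bar at each list's median. Filled red points are genes apart from each other line, pale blue points passed the test against the mean only, and open points were not called. MHC class II and interferon response genes lie mostly to the right, with medians of 1.53 and 0.99, and genes tied to MAF to the left, with a median of -2.39.

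Surface receptors of plasma cells were a mixture. Of 35 tested, 17 were higher, 12 lower and 6 not called, with 5 apart and higher and 2 apart and lower. Over all genes, 27.4% were higher and 26.9% lower, with 4.42% apart and higher and 3.35% apart and lower. PTPRC (CD45), a phosphatase often lost from myeloma cells, had 1206, 1468 and 1843 in U266 against 8.54, 78.7 and 689 (3.55 ± 0.23, adjusted p = 4.28e-13). CXCR4, the receptor that homes plasma cells to bone marrow, had 11981, 16764 and 21121 against 1086, 3749 and 9395 (2.04 ± 0.20), and CD70, a costimulatory ligand, had 4161, 5613 and 11145 against 317, 902 and 4750, with overlap (2.45 ± 0.19). CCR2, a chemokine receptor, was apart with a median of 5136 in U266, against 2154 in MM.1s, 43.2 in KMS11 and 737 in 8226/S.

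The receptors used to identify or target myeloma differed less or less evenly. SDC1 (CD138) had 9261, 15586 and 18638 in U266 against 1469, 5367 and 15644, but was only 0.34 above MM.1s. TNFRSF17 (BCMA) had a median of 12934 in U266, against 16473, 7288 and 1454 in MM.1s, KMS11 and 8226/S. CD38 was near the dim end in U266 at 11.7, 64.5 and 366, a level shared with KMS11 (median 12.5), against 1482 in MM.1s and 883 in 8226/S. TNFRSF13B (TACI), a second receptor for the same ligands as BCMA, was apart and lower at 115, 161 and 259 against 408, 630 and 1149 (-1.69 ± 0.13, adjusted p = 2.32e-11). CD28 had 7199, 8168 and 8827 against 2667, 4009 and 6555, without overlap but under 1 log2 unit from the mean (0.95 ± 0.08).

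Of 20 NF-kB regulators and targets tested, 11 were higher, 3 lower and 6 not called, with a median of 0.44. The shares over all genes were 27.4% and 26.9%. NFKBIA, the inhibitor that NF-kB itself induces, had 4381, 6704 and 8535 in U266 against 840, 2590 and 4763 (1.61 ± 0.18, adjusted p = 2.10e-08). TRAF3, a brake on the alternative NF-kB pathway, had 1268, 1520 and 1866 against 9.08, 597 and 1054, with a median of 24.9 in 8226/S and differences of 1.01 and 1.06 from MM.1s and KMS11. CHUK, a kinase of the pathway, had 1181, 1367 and 2031 against 393, 737 and 1081, without overlap (1.12 ± 0.10).

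Of 18 death receptors and caspases tested, 3 were higher, 9 lower and 6 not called, beside 27.4% higher and 26.9% lower over all genes. CFLAR, an inhibitor of caspase-8, was apart and higher, and 4 members were apart and lower. CASP4, an inflammatory caspase, had 8.33, 15.5 and 27.8 in U266 against 224, 487 and 1849 (-3.58 ± 0.18, adjusted p = 2.51e-15). Both receptors for tumour necrosis factor were among them: TNFRSF1A had 24.6, 87.7 and 315 against 313, 976 and 2437 (-2.75 ± 0.18), and TNFRSF1B had 6.18, 11 and 79.6 against 57.9, 661 and 1796 (-3.46 ± 0.25), each with a marginal overlap. TNFRSF10D, a decoy receptor for TRAIL, had 13.4, 44.1 and 85.3 against 193, 339 and 2074 (-2.48 ± 0.19). Survival genes of the BCL2 family were higher in 3 of 5 tested and lower in none. BCL2 had 2057, 3160 and 3919 against 701, 1266 and 2634 (1.15 ± 0.08), though 2 of its 4 probe sets were not called and their mean gave 0.505, BCL2L2 had 397, 455 and 804 against 12.7, 84.8 and 323 (2.15 ± 0.18), and the MCL1 difference of 0.56 rested on 8226/S, without which it was 0.03.

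The growth-signal genes with the largest differences did not share a direction. In the RAS-MAPK list, 6 of 13 were higher and 4 lower, and its feedback genes DUSP4 (34.5, 91.3 and 245 in U266 against 352, 784 and 3547; -2.86 ± 0.23) and PHLDA1 (41.8, 95 and 109 against 227, 858 and 4900; -3.26 ± 0.26) were apart and lower. EGR1, an immediate early gene, had 8868 in control 2 and 913 in control 1 of U266, and 56.3 after 48 h of ATO, against 13.5, 115 and 891 in the others, so that its difference ranged from -0.43 to 5.00 between labels. Over all labels this probe set differed by 2.15, and its other probe sets by 1.78 and 0.40, the last not called. Of 19 growth factor receptors tested, 4 were higher, 5 lower and 10 not called, beside 27.4% higher and 26.9% lower over all genes. ROR2 (2.16 ± 0.16) and MET (1.33) were apart and higher and TGFBR2 apart and lower (-2.30 ± 0.15).

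Adhesion and matrix genes included some of the widest gaps, with 4 of 21 higher, 9 lower and 8 not called. Shares over all genes were 27.4% higher and 26.9% lower. FN1, fibronectin, had 8.68, 21.1 and 83.2 in U266 against 103, 1539 and 29583 (-5.39 ± 0.26, adjusted p = 1.58e-15), and the medians elsewhere spread from 771 in MM.1s to 16508 in 8226/S. CDH2, N-cadherin, had 2.74, 18.8 and 93.0 against 321, 791 and 1455 (-3.97 ± 0.17), and ANXA1, annexin A1, had 6.64, 39.7 and 68.9 against 32.7, 909 and 12399 (-3.61 ± 0.41). LGALS3, galectin-3, went the other way at 10209, 15719 and 21971 against 356, 1326 and 7159 (3.48 ± 0.13, adjusted p = 1.69e-17).

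Genes that handle arsenic and glutathione matter here because all lines were treated with arsenic. Of 24 tested for uptake, conjugation and export, 8 were higher, 8 lower and 8 not called, beside 27.4% higher and 26.9% lower over all genes. MGST1, a membrane glutathione transferase, had 52.9, 92.1 and 145 in U266 against 1160, 4947 and 20796 (-5.43 ± 0.16, adjusted p = 1.08e-19). ABCC4, an export pump that can carry arsenic conjugates, had 4.39, 23.2 and 71.8 against 380, 860 and 2322 (-3.96 ± 0.14, adjusted p = 3.96e-18). GSTO1, which reduces methylated arsenic, had 127, 653 and 1384 against 2583, 4535 and 9053 (-3.31 ± 0.32, adjusted p = 1.57e-09), and this gap was -5.08 over control 1 and DAR and -1.98 over control 2 and ATO.

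Other members ran opposite or differed by line. GSTM2 was apart and higher at 1095, 1873 and 2418 in U266 against 178, 491 and 1377 (1.65 ± 0.13), although members of this gene family are similar enough for their probes to overlap in what they bind. GSTP1 had a median of 8224 in U266, 10407 in MM.1s and 9697 in KMS11 against 283 in 8226/S, and its difference of 1.45 turned to -0.33 without 8226/S.

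Of 25 metallothionein and antioxidant genes tested, 7 were higher, 9 lower and 9 not called, beside 27.4% higher and 26.9% lower over all genes. GPX3, a glutathione peroxidase, had 432, 605 and 1330 in U266 against 50.5, 156 and 290 (2.02 ± 0.14, adjusted p = 3.46e-12), and its relative GPX4, which protects membrane lipids, had 10670, 12492 and 16726 against 2853, 5572 and 9370 (1.27 ± 0.13, adjusted p = 2.54e-09), both without overlap. GPX1 had 2203, 2595 and 6232 in U266 and a median of 4119 in 8226/S, against 12.9 in MM.1s and 6.74 in KMS11. TXNIP, an inhibitor of thioredoxin, was lower at 953, 2051 and 3043 against 1313, 6171 and 16166 (-1.47 ± 0.19). The arsenic-induced genes HMOX1 (0.49 ± 0.33, adjusted p = 0.223) and MT2A (-0.32 ± 0.26, adjusted p = 0.319) were not called over all labels. HMOX1 was called higher with the control labels alone (0.88, adjusted p = 0.000656), with control 1 and DAR alone (1.07, adjusted p = 0.0208) and without 8226/S (1.00, adjusted p = 0.0106). MT2A was called lower with control 1 and DAR alone (-0.56, adjusted p = 0.0445).

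By chromosome, chromosome 14 held the largest share of genes higher in U266. On it 42.9% of 492 tested genes were higher and 15.0% lower, against 27.4% and 26.9% of all genes, and 42 genes (8.54%) were apart and higher. Chromosome 11, which carries CCND1, had 17.2% of 885 genes higher and 33.7% lower. Chromosome 19 had 71 of 1069 genes apart and higher (6.64%), against 10 apart and lower (0.935%). Gene order along chromosomes was taken from RefSeq (GRCh38.p14), and no copy number was measured.

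**Figure D4:**
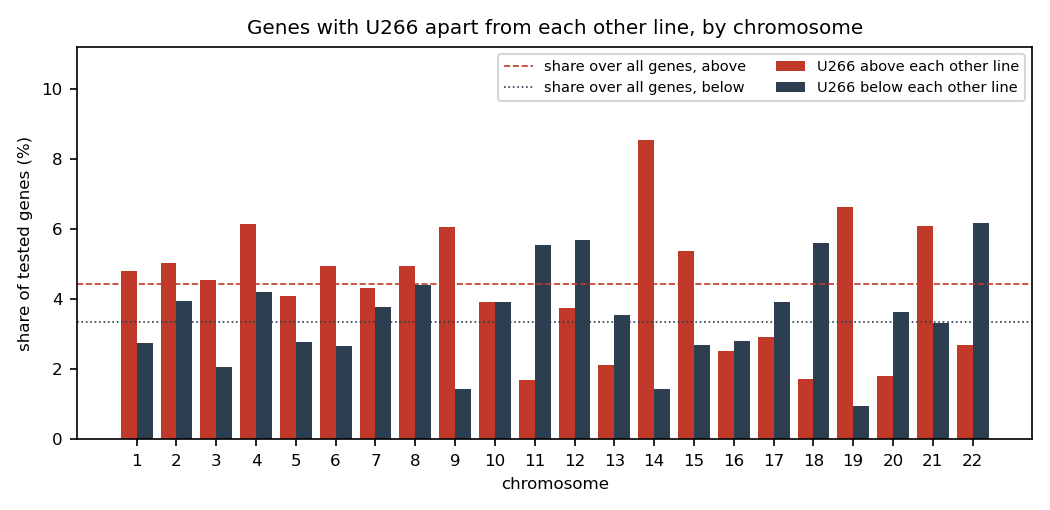
Share of tested genes, in percent, in which U266 was above (red) or below (dark) each other line, by chromosome. Dashed and dotted lines are the shares over all genes, 4.42% and 3.35%, and chromosomes 14 (8.54%) and 19 (6.64%) have the tallest red bars.

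Zinc finger genes made up 36 of the 71 genes apart and higher on chromosome 19. This grouping was made after the values were seen and was not tested. The family encodes DNA-binding repressors that lie in clusters on that chromosome. Of 202 tested genes there named ZNF and a number, 121 were higher in U266 (59.9%) and 19 lower (9.41%), 36 were apart and higher (17.8%), and the median difference was 0.59. The 214 genes so named on other chromosomes had 68 higher and 60 lower with a median of 0.07, and the other 867 genes of chromosome 19 had 234 higher and 174 lower with a median of 0.04. The median of the chromosome 19 set was 0.56 against MM.1s, 0.57 against KMS11 and 0.41 against 8226/S.

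Over runs of 25 neighbouring genes on any chromosome, the highest median difference was 1.39, in the run from XRCC1 to ZNF229 on chromosome 19, with 16 genes higher and 11 apart. ZNF844 had 689, 871 and 1757 in U266 against 5.05, 50.3 and 245 (3.52 ± 0.26, adjusted p = 7.48e-12). ZNF439 had 190, 289 and 470 against 2.82, 14.9 and 110, and ZNF404 had 272, 415 and 597 against 4.68, 57.2 and 123, and none of the 3 overlapped. ZNF559 was an exception, at 1.99, 5.87 and 12.7 in U266 against 319, 514 and 912 (-3.95 ± 0.13, adjusted p = 1.54e-18). Probes for such similar genes may bind more than 1 of them, which leaves the single members less certain than the group.

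**Figure D5:**
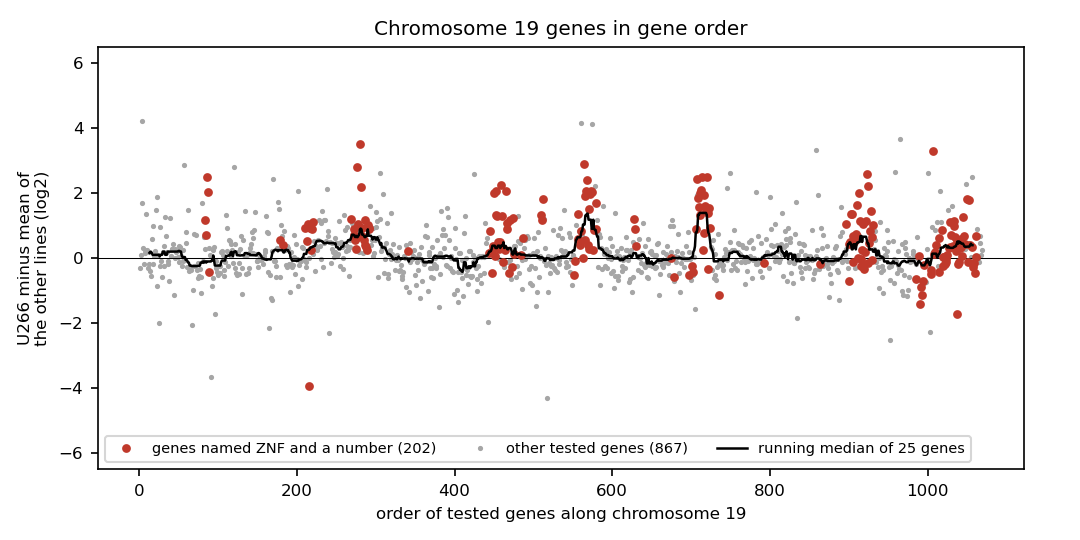
Difference of U266 from the mean of the other lines, in log2 units, for 1069 chromosome 19 genes in gene order, with genes named ZNF and a number in red, other genes in grey and a running median of 25 genes in black. The running median reaches 1.39 at its highest, among the red clusters. Many stretches between clusters lie close to 0, but not all. The grey genes from MAN2B1 to DNASE2, with no red point among them, were mostly higher in U266.

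Few genes showed a detectable change in the distance of U266 to the other lines with arsenic. A term for such a change, fitted beside one for the 2 array groups, was called for 1 of 14856 genes (0.00673%), with 897 at an unadjusted p under 0.05 (6.04%). The gene was TMTC1, a transmembrane protein of the endoplasmic reticulum, with a term of -1.75 ± 0.29 (adjusted p = 0.0450). In U266 it had 125 and 88.3 in the controls, 143 and 38 after DAR, and 24.1, 19 and 22.9 after ATO, against 377 to 1596 in the controls of the other lines and 518 to 4058 after ATO or DAR. Of 10 alternative settings, 7 called no gene, 2 called 1, and control 2 with the ATO arrays alone called 3. Leaving out any other line, control 2, DAR at 24 h or any ATO label also left no call, and without control 1 the 1 gene called had a positive term. Of the 8053 genes called in the main comparison, 7983 had the same sign in control 1 with DAR and in control 2 with ATO, fitted apart, and so did 1152 of the 1154 genes apart. These genes were chosen on the same arrays that make up both parts. Agreement in sign was therefore largely built in and is no independent support.

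Averaging over a gene's probe sets, in place of its brightest, made the difference over 1.5 times smaller for further named genes, all with direction and call kept. These means were 2.92 for OAS3, 2.21 for PTPRC, 2.37 for FBXL13, 1.39 for BCL2L2 and 0.73 for NFKBIA among genes higher in U266. Among those lower they were -1.57 for RCBTB2, -2.15 for CR2, -2.24 for CASP4, -2.55 for ABCC4, -1.78 for ANXA1, -1.73 for PHLDA1 and -0.77 for PDIA3. For IGKC the mean was 0.38 in place of 3.51. ABCC4 was also at -2.38 with an offset of 8.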

How the data were processed

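Total RNA of 4 myeloma lines was measured on 28 one-colour Affymetrix arrays, and the deposited table holds intensity values that the authors made with GCOS, per the submitters' processing notes, in a version not given in the sources used here. All arrays have the same trimmed mean of 500.1 (2% trimmed at each end), so their signals were used without rescaling. Probe sets (54675) were named from the platform annotation updated through Entrez identifiers to RefSeq: 41091 had 1 symbol, 1801 several and 11777 none, and the 62 array controls, most of them without a symbol, were left out. A gene was read from its brightest probe set, and of 18991 autosomal genes the 14856 above the array median on at least 4 arrays were tested.

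Tests used limma 3.58.1 in R 4.3.3 (lmFit, and eBayes with a variance trend) on log2 of the intensity plus 29, with line (4) and label (7) as terms and Benjamini-Hochberg adjustment over all genes tested. Every adjusted p in the text comes from limma. The 7 labels pair the arrays across lines: deviations of arrays with the same label correlated at 0.473 on average between lines (lowest 0.342), and those with different labels at -0.075. Nothing in the labels says that arrays came from separate cultures, so p-values measure the spread between these arrays, which may be technical. The line means were tested as 1 against 3, a design in which an exact permutation test cannot give a p below 0.25. The fits were tested on simulated data.

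The line, its comparison and the 26 gene lists were chosen with earlier results of these data known. Genes named are the 12 highest and 12 lowest of those apart by the smallest of their 3 differences, up to 4 members per list with the largest differences, a short set of known markers, the 12 neighbours and 8 closest correlates of CCND1 and the 6 smallest p-values of the arsenic term. A few more, such as RCBTB2, CTSS, CXCR4, CD70, the zinc finger genes, the genes near RB1, CFLAR, MET and the remaining interferon and cytokine genes, were named after their values were seen. Some members of the lists were not analysed here. Alternatives were other offsets, normalizations, filters, probe set summaries and label subsets, fits without the label block or variance trend, the line as a random block, and leaving out each label or other line.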

Additional observations from a re-analysis of the deposited data

Results flagged for a closer look

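For 13 of 149 named genes checked, the difference of U266 from the others at 1 of the 7 labels lay far from its values at the other 6. Chance meets this criterion in about 1 in 20 genes, and it was met here in 8.72%. At DAR 6 h the differences were -4.01 for MYC (-6.24 to -5.30 at the other labels), -0.60 for DEPTOR (-2.13 to -1.62), -1.39 for IL10RA (-2.37 to -2.0) and 3.29 for ROR2 (1.74 to 2.13). DAR was given to U266 at 4 µM, against 2 or 3 µM in the other lines.

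At control 2 they were 1.49 for SOCS3 (0.13 to 0.63), 5.57 for USP18 (2.37 to 3.73) and 1.04 for GPX3 (1.95 to 2.47), and at control 1 it was 3.4 for CDKN2B (1.45 to 2.27). At DAR 24 h they were -0.32 for PRDM1 (0.10 to 0.27) and -3.56 for CR2 (-4.66 to -4.27). At ATO 6 h it was 2.52 for ZNF844 (3.4 to 4.07), at ATO 24 h 2.18 for TNFRSF17 (1.01 to 1.33), and at ATO 48 h 1.57 for CA13 (2.18 to 2.51). Each of these is a single U266 array against 3 others, and what sets it apart was not tested.

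TMTC1 was the 1 gene called for a change of its gap under arsenic, with a term of -1.75 (limma adjusted p = 0.0450). The call was unstable, since 7 of 10 alternative settings and 8 of 10 fits that left out a label or line called no gene. TMTC1 signal was lower on treated than on untreated U266 arrays except after 6 h of DAR, and higher on treated than on untreated arrays in each other line.

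A probe set annotated to IGHA2, IGHA1 and IGH together was left out of the gene tests because it has several symbols. Its median signal was 12324 in U266, against 158 in MM.1s, 35.2 in KMS11 and 23.9 in 8226/S, and the U266 arrays (4816 to 17748) lay above all others (up to 777). Which of the 3 it measured was not tested.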

How the results depend on the processing

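The count of genes differing from the mean of the other lines, 8053, stayed within 1.5 times under all alternatives except the control labels alone (5186, of which 2608 higher and 2578 lower) and the line as a random block (1358). Without the replicate block, that is without pairing the arrays by label, 6057 genes were called (3131 higher, 2926 lower). Genes apart from each line numbered 900 (mean of all probe sets) to 1320 (offset 8), and 1635 to 1650 when only 2 other lines remained, which loosens the rule by construction. The limma test on line means called 0 genes under every alternative run, with 1463 at an unadjusted p under 0.05 as reported. The count for the arsenic term, 1, was 0 with an offset of 64, quantile normalization, median centring, no filter, the mean of probe sets, no term for array group, and control 1 with DAR alone, was 3 with control 2 and ATO alone, and ran from 0 to 1 when a label or a line was left out. The cause was not tested.

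Of 3275 values for 149 named genes under these alternatives, 3230 kept direction and call, 26 lost and 15 gained a call, and 4 reversed. Leaving out a label or line gave -1.79 to 0.73 for CDKN2A, -0.34 to 0.61 for PRDM1 and -0.33 to 2.40 for GSTP1. The reversed values were 0.73 (without KMS11) and 0.61 (without 8226/S) for CDKN2A, -0.34 for PRDM1 and -0.33 for GSTP1 (both without 8226/S). Median centring moved the median of all genes by under 0.1 log2. With 1 array per treatment and line the number of arrays limits every value.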

Other observations

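Proteasome genes, the targets of bortezomib, were higher in 7, lower in 12 and not called in 7 of 26, with a median difference of -0.12. Cereblon pathway genes, through which lenalidomide acts, were higher in 6 and lower in 6 of 12. CRBN itself had 1624, 2017 and 2870 in U266 (lowest, median and highest array) against 648, 1263 and 1784 in the others (0.82 ± 0.08, limma adjusted p = 3.17e-09). None of either list was apart, beside 27.4% higher, 26.9% lower and 7.77% apart over all genes.

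Chromatin regulators were lower in 16 of 24 tested and higher in 5, with a median of -0.36, and none was apart. SMARCA2, an ATPase of the SWI/SNF complex, had 1277, 1647 and 1923 in U266 against 1735, 3598 and 5365 (-1.10 ± 0.09, adjusted p = 2.02e-11, and -0.70 over the mean of its probe sets). HDAC9, a histone deacetylase, had 1161, 1864 and 4193 against 247, 687 and 3406 (1.2 ± 0.20), at a difference of 0.20 from MM.1s and of 0.75 without 8226/S. Genes of MHC class I and peptide loading were higher in 6, lower in 4 and not called in 6 of 16, with a median of 0.11. Pro-death members of the BCL2 family were higher in 1, lower in 4 and not called in 4 of 9, and markers of other cell types higher in 2, lower in 3 and not called in 11 of 16. Beside each of these lists stand 27.4% higher, 26.9% lower and 7.77% apart over all genes.

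The stretch with the lowest run of 25 genes was on chromosome 22, from GTSE1 to DENND6B, with a median difference of -1.15 and 19 genes lower, 7 of them apart. Long non-coding RNA genes, 1329 in the test, had 54 apart and higher (4.06%) and 9 apart and lower (0.677%). Of 13193 protein-coding genes, 585 (4.43%) and 486 (3.68%) were so, and over all genes 4.42% and 3.35%. Only the share apart and lower was thus smaller for the long non-coding RNA genes, and why was not tested. KRT18, a keratin of simple epithelia, and EPCAM were low in U266 and MM.1s, with EPCAM medians of 11.9 in U266 and 45.7 in MM.1s, against 2380 in KMS11 and 7790 in 8226/S.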
